A study of Mus musculus with 40 samples.

Results

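The transcript assembly of mouse germinal-vesicle oocytes held loci to which no gene name was attached, and 850 of these were expressed on the autosomes. They were the loci of the deposited RNA table whose gene field was empty and whose mean over the 6 control libraries was at least 2 on the log2 scale, which is 4 RPM (reads of the locus scaled to a fixed library size). The table listed 38540 loci, of which 14938 had no gene name and 14156 of those were autosomal, so the 850 made up 6.0% of the unannotated autosomal loci. A further 29 unannotated loci on the X chromosome passed the same level and were left out. Because the control levels chose the loci, those levels are given as a description with no test.

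Oocytes accumulate a large store of RNA during growth that carries the egg through its first divisions, and this store includes many transcripts absent from reference gene sets. Long non-coding RNAs, transcripts started inside retrotransposons and read-through or antisense products of genes are all known among them. G9A, the product of Ehmt2, works in a complex with GLP, the product of Ehmt1, and this enzyme pair writes H3K9me2, a methyl mark on histone H3 that is typical of silent chromatin.

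All samples were oocytes at the germinal-vesicle stage, dissected by hand from the ovaries of mice aged 22 to 25 days, with 100 to 200 oocytes pooled in each sample. The RNA comparison used 11 libraries: 3 of G9a cKO, a conditional deletion of G9a, with 3 controls that share its title prefix GKAO, and 2 of cDKO, a conditional deletion of G9a and Glp together, with 3 controls that share its prefix GKAQ. H3K9me2 was profiled by native chromatin immunoprecipitation with 250 ng of antibody in 2 control, 2 G9a cKO and 2 cDKO libraries, whose controls carried no prefix. The Cre driver, the deleted exons and the genotype of the controls beyond the word control are not given in the sources used here, and nothing says that libraries of a group came from separate mice, so p-values measure only the spread between these libraries.

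The coordinates of 23 of the 850 loci began within 100 bases of a RefSeq gene start on the same strand, and 52 began within 500 bases. Each comparison of those 23 RefSeq promoters (250 bases before to 50 bases after the start) covered both orientations, and 3 of the 253 pairs shared a run of 15 or more identical bases. All 3 pairs came from the promoters of Gm6150, Gm36480 and Gm3143, RefSeq long non-coding RNAs (lncRNAs) on 3 different chromosomes. The 3 share the 28-base run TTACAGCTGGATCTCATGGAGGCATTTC, found in 12 of the 32851 promoters of the RefSeq table (GRCm38.p6), 9 of them of lncRNAs. The sequences are shown because the run is common to all 3 promoters, and differences in response between its 3 loci were not tested. They are written 5′ to 3′ on the gene's strand, with the shared run in capitals. In Gm6150 (chr10:9684472-9684771, plus strand) and Gm36480 (chr15:90353460-90353759, plus strand) the run begins at position -80 from the RefSeq start, and in Gm3143 (chr3:34716613-34716912, minus strand) its reverse complement begins at -153.
Gm6150: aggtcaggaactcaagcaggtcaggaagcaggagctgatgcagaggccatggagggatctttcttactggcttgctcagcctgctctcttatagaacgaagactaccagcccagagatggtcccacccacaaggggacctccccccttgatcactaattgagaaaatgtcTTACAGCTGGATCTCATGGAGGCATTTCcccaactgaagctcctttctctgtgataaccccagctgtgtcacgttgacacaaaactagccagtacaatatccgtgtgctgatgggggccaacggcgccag
Gm36480: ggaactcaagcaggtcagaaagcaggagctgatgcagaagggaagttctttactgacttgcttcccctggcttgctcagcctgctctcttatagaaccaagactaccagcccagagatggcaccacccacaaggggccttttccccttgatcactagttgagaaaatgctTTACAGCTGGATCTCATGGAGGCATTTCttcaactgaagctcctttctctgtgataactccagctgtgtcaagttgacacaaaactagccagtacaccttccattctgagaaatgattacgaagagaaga
Gm3143: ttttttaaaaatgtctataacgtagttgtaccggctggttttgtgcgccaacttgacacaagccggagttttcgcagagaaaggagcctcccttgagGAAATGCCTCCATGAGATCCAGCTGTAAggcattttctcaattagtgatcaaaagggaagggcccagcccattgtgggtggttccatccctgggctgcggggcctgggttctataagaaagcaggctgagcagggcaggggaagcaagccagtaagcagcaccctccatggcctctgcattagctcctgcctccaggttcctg

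The loci at these starts were TCONS_00008182 (Gm6150), TCONS_00037837 (Gm36480) and TCONS_00066887 (Gm3143). TCONS_00037837 fell in both mutants and TCONS_00066887 was higher in both against its own controls. TCONS_00008182 lay lower in both but passed the test in neither. Their values are given with the results.

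Of the 23 loci, 8 were called in at least 1 mutant against its controls, and 693 of the 850 were called in neither. For each mutant alone, 7.41% of the 850 were called in G9a cKO and 15.9% in cDKO, and 1.79% and 6.34% of all loci in the table. Besides Gm36480 and Gm3143, the called loci include those at Gm29999 (chr3:82664851-82665150, minus strand) and Gm33700 (chr9:98887823-98888122, plus strand), both higher in cDKO. The promoters of Gm29999 and Gm33700 are printed because they hold a match to TAATTA or TATAAA. That of Gm39321 holds TAATTA as well and is not printed. Its locus, TCONS_00102764, was called in G9a cKO and between the controls of the 2 crosses. The printed promoters do not stand for the rest: those of Gm32635, Gm35925 and Gm8541, also at loci called in cDKO, hold neither. The promoters were searched on both strands for TATAAA (the TATA box), for TAATTA (a homeodomain core) and for CANNTG (the E-box), and no match of one motif overlapped a match of another in these 23 promoters. In the sequences below the matches are in capitals.
Gm29999: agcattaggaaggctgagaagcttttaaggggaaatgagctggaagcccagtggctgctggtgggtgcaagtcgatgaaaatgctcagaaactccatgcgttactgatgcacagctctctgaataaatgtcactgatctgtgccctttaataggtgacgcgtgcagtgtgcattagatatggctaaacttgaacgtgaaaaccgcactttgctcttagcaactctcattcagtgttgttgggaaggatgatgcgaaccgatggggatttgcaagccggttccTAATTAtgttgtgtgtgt
Gm33700: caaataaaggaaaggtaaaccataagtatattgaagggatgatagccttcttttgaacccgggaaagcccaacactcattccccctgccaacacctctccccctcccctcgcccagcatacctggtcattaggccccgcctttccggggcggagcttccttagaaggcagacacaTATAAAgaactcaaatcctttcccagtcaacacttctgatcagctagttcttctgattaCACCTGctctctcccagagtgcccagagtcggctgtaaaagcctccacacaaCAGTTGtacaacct

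TATAAA was present in 2 of the 23 promoters (8.70%) and in 13.6% of all RefSeq promoters. TAATTA was present in 4 (17.4%), against 5.29% of all, and CANNTG in 19 (82.6%), against 72.3% of all. These are matches of letters in a window and not binding sites.

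MicroRNA hairpins lay inside 2 of the loci. TCONS_00040466, the locus with the highest control level, holds Mir6961 on its own strand, and TCONS_00048645 holds Mir6420 on the other strand. The mature sequences are printed with the seed, bases 2 to 8, in capitals, and the 3 seeds differ from one another. Levels of the mature microRNAs were not analysed here.
mmu-miR-6961-5p: uGACUGGGaaggaaauggcc
mmu-miR-6961-3p: uCCUCUUUcuuccuggcucuag
mmu-miR-6420: aCUAAUCCuauaaaaucaaac

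Library depth ranged from 1458868 to 2399680 reads in RNA, so a read was worth 0.417 to 0.685 RPM and the median locus of the 850 held 17 reads per control library. Ehmt1 stood at 54.5 to 90.5 RPM in the 9 libraries other than cDKO and at 17.6 and 21.3 RPM in cDKO (log2 change -2.06 ± 0.20 SE, adjusted p 1.09e-21). Ehmt2 held few reads, 2 to 30 per library, and its lower level passed the test in neither mutant (log2 change -1.55 ± 0.51 SE with adjusted p 0.0971 for G9a cKO, then -1.45 ± 0.57 SE with adjusted p 0.121 for cDKO). These counts cover the whole gene, and which exons were removed is not given. Of 15 oocyte markers 14 were matched, summing to 19080 to 22870 RPM in every library. Granulosa markers (all 12 matched) summed to 58.9 to 90.9 RPM, with the G9a cKO libraries lowest at 58.9 to 63.9 and their controls at 72.0 to 87.9. Theca and stroma markers (6 of 7 matched, 2 of them at 0 in every library) summed to 0 to 5.00 RPM. Of 3 endothelial markers 2 were matched and summed to 78.6 to 129 RPM, and of 5 blood markers only Hba-a1, a globin gene, was matched, at 0 in all 11 libraries. The part of other cells in the results below was not tested.

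The unannotated loci were shorter and lower than annotated ones. Their median length was 15108 bp, with quartiles of 6862 and 31630 bp and a range of 109 to 520731 bp, and 39 exceeded 100 kb. The 10169 annotated autosomal loci that passed the same level had a median length of 28678 bp. The median control level of the 850 was 3.03 log2 RPM against 5.07 for the annotated loci, and 413 of the 850 (48.6%) lay below 3 against 14.2% of the annotated loci. Replicates also spread more: the median SD of log2 RPM was 0.36 in GKAO controls, 0.31 in G9a cKO, 0.29 in GKAQ controls and 0.27 in cDKO, against 0.18 to 0.21 for annotated loci. At least 1 read was present in all 11 libraries for 845 of the 850, and over 3 reads in all 6 controls for 801. The level threshold fell in a dense range. The members nearest above it were TCONS_00003859, TCONS_00068760 and TCONS_00052488, at 2.001, 2.004 and 2.009, and the loci nearest below it were TCONS_00080762, TCONS_00085795 and TCONS_00017887, at 1.995, 1.994 and 1.992.

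Without a gene name in the table did not always mean without a gene in RefSeq. RefSeq genes of GRCm38.p6 overlapped 418 of the 850 loci (49.2%) and none overlapped the other 432. Overlapping genes covered 50% or more of the locus in 249 cases. lncRNAs overlapped 284 loci, pseudogenes 131, protein-coding genes 64 and microRNA genes 2. The strand of an overlapping gene was known for 273 loci and was the same in 210 of them.

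The loci were scattered over all autosomes, with the most on chromosome 1 (73) and the fewest on chromosome 16 (23). Per megabase the density was highest on chromosome 8 (0.472) and lowest on chromosome 2 (0.154). Strands were nearly even, 403 plus and 447 minus. The nearest annotated locus lay a median of 54403 bp away and at most 1593274 bp away. It lay within 10 kb of 170 loci, 35 of which it overlapped, and within 100 kb of 530. Among the 135 within 10 kb that did not overlap it, 67 were on the same strand and 68 on the other, and of the 68 the annotated locus lay on the upstream side in 45, the arrangement of a divergent pair.

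Clustering was slight. With gaps of up to 10 kb allowed, 148 loci fell into 70 clusters, none larger than 3 loci, and 41 of these clusters were 1 locus on each strand of the same place. With gaps of up to 50 kb there were 93 clusters with 195 loci, again with at most 3. Because such overlaps count the same place more than once, the 850 loci were 803 separate places.

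A locus on the other strand overlapped 276 of the 850 (32.5%). Of 44 loci that lay whole inside such a partner, all 44 had no more reads than the partner in every library, and 4 loci had exactly the reads of their partner in all 11 libraries. How the authors' counts used strand is not given in the sources used here, so reads of these loci and of their opposite partners cannot be told apart, and counts are also given for the 574 loci without a partner.

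The 5 highest control levels belonged to 4 places. TCONS_00040466 (chr15:100639840-100669623, minus strand, 95.4% covered by Bin2, an adaptor protein gene with a BAR domain, and by Mir6961) stood at 341, 389 and 378 RPM in GKAO controls and 424, 352 and 358 in GKAQ controls. TCONS_00094079 (chr7:46966666-46977535, minus strand, over 5 RefSeq lncRNA genes and pseudogenes) stood at 409.9, 368 and 377 RPM and at 310.5, 274 and 351 in the same order, against 351, 255 and 289 in G9a cKO, then 232 and 199.8 for cDKO. It fell in both mutants, by 0.38 on the log2 scale (SE 0.09, adjusted p 0.00443, but 0.0729 without GKAO control 1 and 0.128 without G9a cKO 2) and by 0.53 (SE 0.10, adjusted p 2.72e-05). Both calls ended with log2(RPM + 1) and without the variance trend (0.401 and 0.225 at most), that in G9a cKO also with all 6 controls pooled. Next came a pair on opposite strands of chr17:39842993-39848831, TCONS_00045872 and TCONS_00048117, over the ribosomal RNA copies Rn18s-rs5 and AY036118, with identical reads. The fifth was TCONS_00004822 (chr1:42545032-42549916, minus strand, no RefSeq gene) at 178, 224 and 219.7 RPM in GKAO controls and 309, 245 and 295 in GKAQ controls. The ribosomal pair was the most variable of these: each locus held 418 to 661 RPM in GKAO controls, 518 to 1167 in G9a cKO, 149 to 234 in GKAQ controls, and 440.1 and 324 in cDKO. The pair passed the test in neither mutant, with adjusted p 0.294 in G9a cKO and 0.279 in cDKO.

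The 3 longest loci lay 156252 to 207134 bp from the nearest locus annotated in the deposited table. TCONS_00088745 (chr6:130481482-131002212, minus strand, 520731 bp, crossing 9 RefSeq genes and pseudogenes) stood at 232, 186 and 186 RPM in GKAO controls, 254, 221 and 262 in G9a cKO, 202, 204 and 200.1 in GKAQ controls and 257 and 279 in cDKO. Both cDKO values lay above all 3 of their controls, and the rise passed the test (log2 change 0.41 ± 0.12 SE, adjusted p 0.0118). The call ended without GKAQ control 3 (0.0513) or cDKO 2 (0.162), with centring on detected loci, with log2(RPM + 1), and without the variance trend. TCONS_00044936 (382503 bp) and TCONS_00075659 (336115 bp) held 2.35 to 10.2 and 8.74 to 18.3 RPM over the 11 libraries and passed the test in neither mutant. A value in RPM is not per length, so such long loci are thinly covered.

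The 850 loci together took a slightly larger share of the reads in the mutants. They held 1.46% to 1.55% of each library in GKAO controls and 1.58% to 1.77% in G9a cKO, and 1.48% to 1.52% in GKAQ controls against 1.77% and 1.81% in cDKO. Neither mutant overlapped its controls. Without the ribosomal pair the shares were 1.36% to 1.42%, 1.48% to 1.53%, 1.45% to 1.48%, and 1.68% and 1.75%, so the groups still did not overlap. In these pools more transcribing cells and more RNA per cell cannot be told apart.

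In G9a cKO 63 of the 850 loci changed, 48 higher and 15 lower. A locus was called when its limma test, fitted over all 11 libraries and all loci of the table, gave a Benjamini-Hochberg adjusted p under 0.05. Over all 38540 loci 1.79% were called, 1.05% higher and 0.737% lower, many of the other loci being almost without reads. The 850 were called in 7.41% of cases, and the annotated loci past the same level in 4.30% (193 higher and 244 lower of 10169). The median log2 change was 0.06 over the 850 and -0.002 over the annotated loci.

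In cDKO 135 of the 850 changed, 96 higher and 39 lower (15.9%). Over all 38540 loci of the fit, 6.34% were called, 4.32% higher and 2.02% lower, and of the annotated expressed loci 13.4% (683 higher and 678 lower). The median log2 change was 0.15 over the 850 and 0.04 over the annotated loci. Every called locus had all libraries of the mutant outside the range of its controls, in both comparisons. So had 175 of the 787 loci not called in G9a cKO and 288 of the 715 not called in cDKO. Such separation was not counted over all loci of the table, so these counts show nothing particular to the 850. Since it held for every called locus, the separation stated below for single called loci adds nothing to their calls. Of the 96 higher loci 85 reached a log2 change of 1, as did 39 of the 48 in G9a cKO. Counted once per place, the calls were 48 higher and 14 lower in G9a cKO and 93 and 38 in cDKO.

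**Figure D1:**
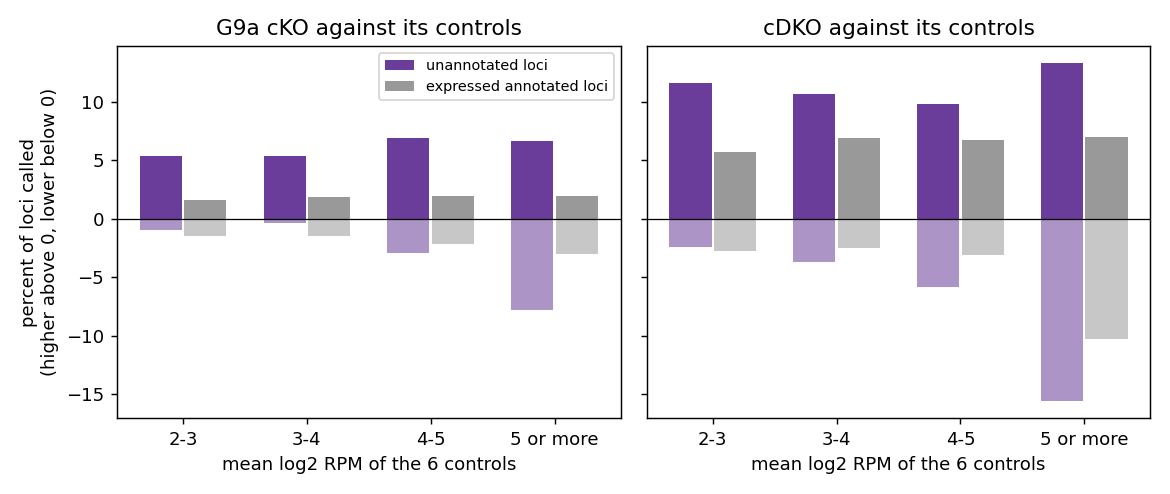
Percent of loci called higher (bars above 0) and lower (paler bars below 0) in G9a cKO, left, and in cDKO, right, by the mean control level in log2 RPM, for the 850 unannotated loci and for annotated expressed loci. At a control level of 2 to 3 the unannotated loci were called in 6.30% and 14.0% of cases, and annotated loci in 3.04% and 8.44%.

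In each of the 4 classes of control level plotted, the share called was higher among unannotated than among annotated loci. In the lowest class, 2 to 3 log2 RPM, 6.30% of 413 unannotated and 3.04% of 1445 annotated loci were called in G9a cKO, and 14.0% and 8.44% in cDKO. In the highest class, 5 or more, the shares were 14.4% of 90 and 4.99% of 5228 in G9a cKO, and 28.9% and 17.3% in cDKO. In that class the unannotated loci split nearly evenly by direction, with 6 higher and 7 lower in G9a cKO and 12 higher and 14 lower in cDKO, while in the lowest class they were mostly higher, 22 to 4 and 48 to 10. No test was run on the difference between these lists.

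Since the same controls chose the loci and served in the test, the loci were also chosen on the other cross alone. Chosen on GKAQ controls, 902 loci passed and G9a cKO calls numbered 67 (52 higher and 15 lower), and chosen on GKAO controls, 855 passed and cDKO calls numbered 143 (105 higher and 38 lower). Among the 574 loci without a partner on the other strand, G9a cKO calls numbered 49 (40 higher and 9 lower) and cDKO calls 96 (73 higher and 23 lower).

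The called loci differed in where they lay. Of the 432 loci without any RefSeq gene, 35 were higher and 8 lower in G9a cKO, and 61 higher and 14 lower in cDKO. Of the 418 with one, 13 were higher and 7 lower in G9a cKO, and 35 higher and 25 lower in cDKO. The loci higher in cDKO lay a median of 132703 bp from the nearest annotated locus and those lower in cDKO 17030 bp, with 53220 bp for loci not called. In G9a cKO the medians were 115952, 10134 and 53495 bp in the same order. Within 10 kb of an annotated locus the calls leaned the other way, 5 higher and 7 lower of 170 in G9a cKO and 10 higher and 16 lower in cDKO.

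Most annotated neighbours of called loci were not called themselves. Of the 31 loci higher in cDKO that had an annotated locus within 50 kb, 5 had that neighbour called higher and none lower, and of the 26 loci lower in cDKO, 2 had it called lower and none higher. Of 353 neighbours of loci not called in cDKO, 23 were called higher and 23 lower, and of all annotated expressed loci 6.72% and 6.67%. The neighbours were taken at any expression level, so the share among expressed loci is that of an unlike set. Over all loci of the fit, 4.32% were called higher in cDKO and 2.02% lower. In G9a cKO 1 of 15 neighbours of higher loci was called higher, and none of 13 neighbours of lower loci was called in either direction, with 6 higher and 9 lower among 382 neighbours of loci not called. No test was run on these shares.

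**Figure D2:**
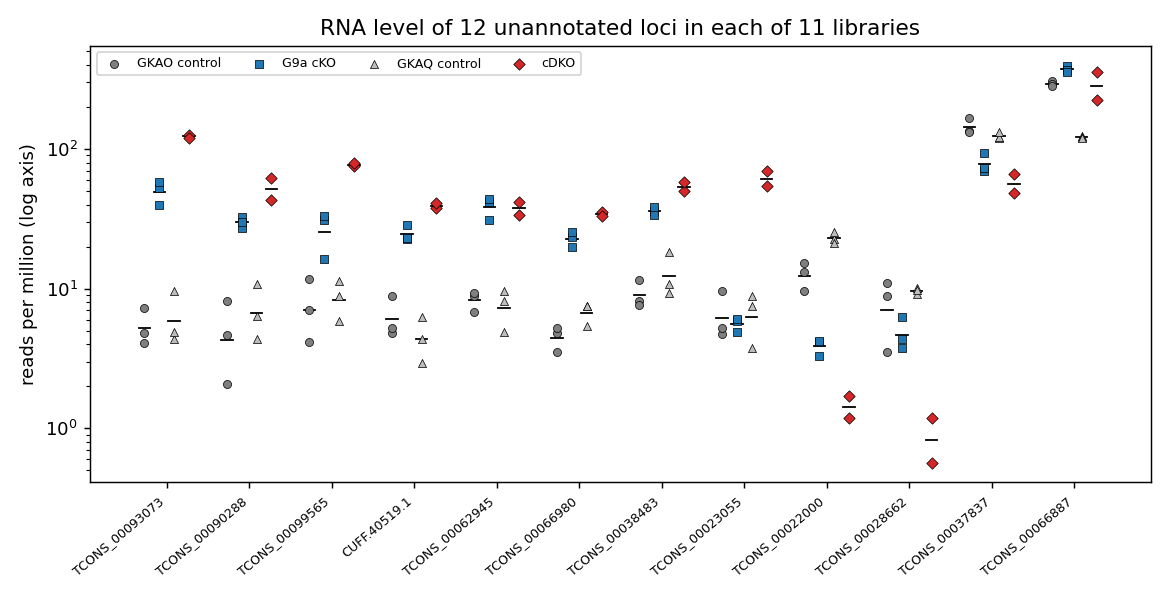
Level in RPM (log axis) of 12 unannotated loci in each of the 11 RNA libraries, 1 point per library and a bar at the mean of the log2 values, by group. For TCONS_00093073 the 6 control points lie between 4.10 and 9.59 RPM and the 5 mutant points between 40.02 and 127 RPM.

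The locus with the largest rise in both mutants was TCONS_00093073 (chr7:17635299-17640629, minus strand), which overlaps the RefSeq non-coding gene Gm9519 over 58.7% of its length and lies 44704 bp from Ceacam5, a cell adhesion gene. It held 4.80, 7.33 and 4.10 RPM in GKAO controls, 52.6, 57.9 and 40.02 in G9a cKO, 4.40, 9.59 and 4.93 in GKAQ controls, and 127 and 121 in cDKO. No mutant library came near any control. On the log2 scale G9a cKO differed from its controls by 3.24 ± 0.29 (SE, adjusted p 2.14e-25), cDKO by 4.39 ± 0.32 (adjusted p 3.35e-38), and the call held in all 19 alternatives run on each. The difference between the 2 effects, 1.15 (SE 0.43), did not pass the test (adjusted p 0.169).

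TCONS_00090288 (chr7:36571325-36574161, plus strand, no RefSeq gene, 266346 bp from the nearest annotated locus) rose in both mutants. It held 8.23, 2.095 and 4.69 RPM in GKAO controls, 32.6, 27.3 and 30.1 in G9a cKO, 4.40, 10.8 and 6.41 in GKAQ controls, and 43.3 and 61.6 in cDKO. All mutant libraries exceeded all controls, with log2 changes of 2.79 (SE 0.33, adjusted p 7.49e-14) and 2.94 (SE 0.37, adjusted p 8.24e-13).

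TCONS_00099565 (chr8:23512385-23515336, minus strand, no RefSeq gene) lies 58224 bp from Sfrp1, a secreted inhibitor of Wnt signalling. Its values were 11.7, 4.19 and 7.03 RPM in GKAO controls, 16.3, 31.1 and 33.4 in G9a cKO, 11.3, 5.83 and 8.87 in GKAQ controls, and 75.2 and 79.4 in cDKO. The 2 cDKO libraries were the highest of the 11 and G9a cKO 1 lay closest to the controls. G9a cKO gave a log2 change of 1.88 ± 0.30 (SE, adjusted p 2.90e-07), cDKO of 3.21 ± 0.34 (adjusted p 1.43e-18).

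CUFF.40519.1 (chr7:11063384-11066431, minus strand) covers the pseudogene Zscan4-ps1 in part and lies whole within the opposite-strand locus named Zscan4b. Zscan4 genes are known for a burst of expression at the 2-cell stage. The locus held 4.80, 8.90 and 5.27 RPM in GKAO controls, 22.5, 28.4 and 23.1 in G9a cKO, 4.40, 6.25 and 2.96 in GKAQ controls, and 37.6 and 40.9 in cDKO, with no overlap between mutants and controls. On the log2 scale G9a cKO differed from its controls by 2.01 ± 0.35 (SE, adjusted p 3.95e-06), cDKO by 3.18 ± 0.39 (adjusted p 2.06e-13). The Zscan4b locus around it, with 16 to 41 reads in the controls, 83 to 91 in G9a cKO and 118 and 145 in cDKO, rose by 1.95 (adjusted p 5.56e-11) and 2.52 (adjusted p 1.16e-15) on the log2 scale. These are near-identical gene copies, so which copy the reads came from is uncertain.

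A further 3 loci without a RefSeq gene rose in both mutants. TCONS_00066980 (chr3:39834222-39919945, minus strand, 85724 bp) held 4.80, 5.24 and 3.52 RPM in GKAO controls, 20.04, 23.5 and 25.4 in G9a cKO, 7.54, 7.50 and 5.42 in GKAQ controls, and 35.3 and 33.2 in cDKO. Mutants and controls did not overlap, and the log2 changes were 2.36 (SE 0.35, adjusted p 1.42e-08) and 2.34 (SE 0.39, adjusted p 3.58e-07). Within it, on the other strand, the 3942 bp unannotated locus CUFF.29093.1 was also called higher (2.95, adjusted p 1.55e-10, and 2.44, adjusted p 4.29e-06). That short locus held 16.3, 20.8 and 20.7 RPM in G9a cKO and 32.5 and 26.7 in cDKO, close to the values of the long one. Their reads cannot be told apart, so this is not counted as a second rise. Another locus within it on the other strand, TCONS_00064126, passed the test in neither mutant (adjusted p 0.2304 and 0.1515). TCONS_00062945 (chr2:171914165-171933598, minus strand) rose from 6.81 to 9.38 RPM in its controls to 31.1 to 44.3 in G9a cKO (log2 change 2.22 ± 0.30 SE, adjusted p 2.80e-10), and from 4.93 to 9.59 to 42.1 and 33.8 in cDKO (2.37 ± 0.34 SE, adjusted p 6.18e-10). TCONS_00038483 (chr15:10865674-10881530, minus strand), 93881 bp from C1qtnf3, rose from 7.62 to 11.5 RPM to 33.9 to 38.6 in G9a cKO (2.01 ± 0.28 SE, adjusted p 4.20e-10) and from 9.37 to 18.2 to 50.1 and 58.1 in cDKO (2.14 ± 0.31 SE, adjusted p 1.29e-09).

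The pseudocount mattered for the G9a cKO calls. On the scale log2(RPM + 1) only 5 of the 63 stayed called: TCONS_00093073 (adjusted p 0.0122), TCONS_00066980 (0.0079), TCONS_00062945 (0.0332), TCONS_00038483 (0.0473) and TCONS_00030538 (0.0295), the last named here after its values were seen. Without the variance trend 24 were called, 23 of them among the 63. The G9a cKO calls of TCONS_00090288 (0.0769 on log2(RPM + 1)), TCONS_00099565 (0.162 at most over these settings) and CUFF.40519.1 (0.0547) were lost there, while their cDKO calls held in every alternative.

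TCONS_00067858 (chr3:91970132-91991183, minus strand, no RefSeq gene) was among the largest rises in G9a cKO but its 2 sets of controls were unlike. It held 3.43, 3.14 and 1.17 RPM in GKAO controls, 13.8, 14.2 and 11.3 in G9a cKO, 5.03, 9.17 and 10.3 in GKAQ controls, and 15.9 and 24.9 in cDKO. The log2 change was 2.48 in G9a cKO (SE 0.41, adjusted p 9.28e-07, and 0.0842 with log2(RPM + 1)) and 1.35 in cDKO (SE 0.46, adjusted p 0.0521). The GKAQ controls lay above all GKAO controls and below all G9a cKO libraries.

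**Figure D3:**
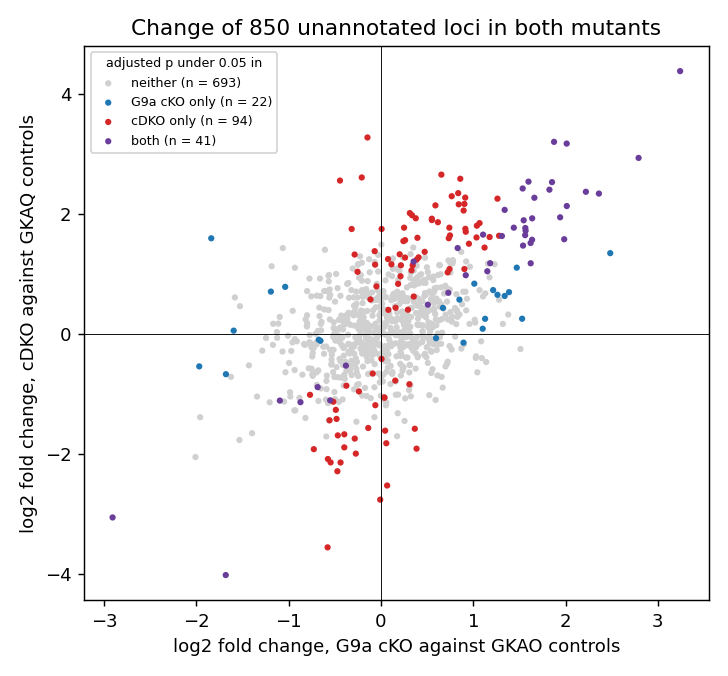
Log2 fold change of each of the 850 unannotated loci in G9a cKO against GKAO controls (horizontal) and in cDKO against GKAQ controls (vertical), coloured by the comparison in which it was called. The 41 loci called in both lie at the upper right (34 higher) and lower left (7 lower) only.

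The 2 comparisons use separate controls but share the estimate of spread at each locus, so their lists are not independent. Calls in both mutants were not counted over all loci of the table. Of the 850 loci 41 were called in both, 34 higher and 7 lower, and none in opposite directions. They were 65.1% of the 63 called in G9a cKO and 30.4% of the 135 called in cDKO. The change was larger in cDKO for 31 of the 41, with a median absolute log2 change of 1.73 in cDKO and 1.56 in G9a cKO. Of the 63, 57 had the same sign in cDKO, and of the 135, 115 did so in G9a cKO. The signs also matched for 410 of the 693 loci called in neither.

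A group of loci rose in cDKO and did not pass the test in G9a cKO. TCONS_00023055 (chr12:96110251-96114218, plus strand, no RefSeq gene, 808047 bp from the nearest annotated locus) held 9.60, 4.71 and 5.27 RPM in GKAO controls, 5.84, 4.92 and 6.12 in G9a cKO, 3.77, 7.50 and 8.87 in GKAQ controls, and 54.1 and 69.4 in cDKO. Only the 2 cDKO libraries left the common range. The log2 change was 3.28 (SE 0.43, adjusted p 6.81e-12) in cDKO and -0.15 (SE 0.38, adjusted p 0.814) in G9a cKO, and the difference of the 2 effects was 3.43 (SE 0.57, adjusted p 3.14e-06, and 0.0554 with log2(RPM + 1)).

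TCONS_00004505 (chr1:30673609-30682609, minus strand) lies whole within the RefSeq lncRNA gene Gm39615. It held 3.77 to 7.33 RPM in the 9 other libraries and 31.9 and 24.9 in cDKO, a log2 change of 2.61 (SE 0.49, adjusted p 8.24e-06) against -0.21 (SE 0.43, adjusted p 0.757) in G9a cKO. TCONS_00031171 (chr13:105486012-105492973, minus strand), 90.5% covered by the lncRNA gene Gm41050, held 3.34 to 6.17 RPM in the others and 18.2 and 33.8 in cDKO, with 2.56 (SE 0.51, adjusted p 3.57e-05) against -0.44 (SE 0.45, adjusted p 0.496). The effects differed for both, by 2.82 (adjusted p 0.00393, and 0.0717 without cDKO 1) and 3.01 (adjusted p 0.00277, and 0.0874 without cDKO 2). TCONS_00054736 (chr19:26869750-26882808, minus strand), overlapped by the lncRNA Gm46648 and 2544 bp from Gm815, rose in cDKO from 3.77, 5.83 and 1.97 to 19.4 and 25.5 RPM (2.66 ± 0.47 SE, adjusted p 1.81e-06), and its difference between mutants did not pass the test (2.01, adjusted p 0.0915).

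In all 16 of the 850 loci had effects that differed between the mutants, 10 with a higher and 6 with a lower effect in cDKO (1.88%, against 1.08% over all loci and 2.98% of annotated expressed loci). With the libraries centred on detected loci, which shifts this difference by 0.07 on the log2 scale, the split was 9 higher and 10 lower, and without cDKO 1 it was 5 and 6. The count rested on single libraries: it was 62 without GKAQ control 1 and 10 without GKAQ control 3, and 12 when loci without any read were left out together with GKAQ control 1. With log2(RPM + 1) 3 of the differences were called, and 5 without the variance trend.

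At 3 of these loci G9a cKO was called lower while cDKO lay above its own controls without passing the test. TCONS_00084319 (chr6:39814772-39821791, plus strand) held 20.6, 25.7 and 27.5 RPM in GKAO controls, 15.4, 9.83 and 8.01 in G9a cKO, 20.1, 21.7 and 21.7 in GKAQ controls, and 29.6 and 40.3 in cDKO. G9a cKO lay below its controls (log2 change -1.19 ± 0.28 SE, adjusted p 0.00218, and 0.0620 without G9a cKO 3), cDKO lay above its own (0.71 ± 0.31 SE, adjusted p 0.181), and the difference of 1.90 passed the test (SE 0.41, adjusted p 0.00140). TCONS_00074033 (chr4:80902887-80905956, minus strand) followed the same order, 13.7 to 22.0 RPM in GKAO controls, 7.10 to 10.8 in G9a cKO, 14.3 to 20 in GKAQ controls and 27.3 and 32.0 in cDKO, with a difference of 1.83 (SE 0.45, adjusted p 0.00967, 0.0556 without GKAQ control 3 and 0.0683 without cDKO 2). Its fall in G9a cKO passed the test narrowly (log2 change -1.04, adjusted p 0.0362). That call was lost in 8 of the 19 alternatives, among them those without GKAO control 2 (0.151) or 3 (0.168) or G9a cKO 1 (0.238) or 2 (0.09).

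The remaining one of the 3, TCONS_00100950 (chr8:88641724-88643703, minus strand), held 6.86, 5.76 and 9.96 RPM in GKAO controls, 2.09, 2.19 and 1.88 in G9a cKO, 2.51, 2.92 and 2.46 in GKAQ controls, and 9.68 and 6.52 in cDKO. Its cDKO libraries stood at the level of the GKAO controls, and the difference was 3.44 (SE 0.80, adjusted p 0.00443, and 0.0730 without cDKO 1). Its fall in G9a cKO passed the test narrowly as well (log2 change -1.84, adjusted p 0.0372). That call was lost in 9 of the 19 alternatives. Among these were the removal of any single GKAO control or G9a cKO library (0.0541 to 0.237) and the pooling of all 6 controls. All 3 loci, chosen by the size of this difference, had their nearest annotated gene on the other strand, upstream and within 4652 bp: Mrps33, a protein of the mitochondrial ribosome, 3391 bp from the first, D4Bwg0951e 4652 bp from the next, and Nod2, a sensor of bacterial cell wall fragments, 3611 bp from the last.

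Losses were fewer, and several of them reached near-zero reads. TCONS_00022000 (chr12:37589330-37598113, plus strand, no RefSeq gene of its own) lies within the opposite-strand locus of Agmo, the enzyme that cleaves ether lipids. It held 9.60, 13.1 and 15.2 RPM in GKAO controls, 4.17, 3.28 and 4.24 in G9a cKO, 22.6, 21.2 and 25.6 in GKAQ controls, and 1.71 and 1.19 in cDKO, which were 3 and 2 reads. All mutant libraries lay below all controls. The log2 change was -1.68 in G9a cKO (SE 0.42, adjusted p 0.00727), and cDKO lay at least 13.0-fold below its controls (adjusted p 1.21e-14), taken against a floor of 3 reads. The G9a cKO call ended without GKAO control 3 (0.0831) or G9a cKO 2 (0.0586), and with log2(RPM + 1).

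The difference between the mutants at TCONS_00022000 passed the test narrowly (adjusted p 0.0278), its size not being given because cDKO stood at the floor, and was lost when any of 7 single libraries was left out: GKAO controls 1 (0.0888) and 2 (0.0514), G9a cKO 1 (0.0598) and 3 (0.0556), GKAQ controls 2 (0.0778) and 3 (0.122), and cDKO 2 (0.0841). Agmo itself, whose reads cannot be told apart from those of this locus, held 16 to 33 reads in GKAO controls, 16 to 20 in G9a cKO, 40 to 56 in GKAQ controls, and 9 and 11 in cDKO. It fell in cDKO by 2.11 on the log2 scale (SE 0.38, adjusted p 2.97e-06), and its change in G9a cKO was -0.74 (adjusted p 0.230).

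TCONS_00082859 (chr5:125238320-125272956, minus strand, over the lncRNA Gm32585 on the same strand) lies 4130 bp downstream of Scarb1, the receptor for high-density lipoprotein. It held 8.23, 9.43 and 1.76 RPM in GKAO controls, 0.417, 1.64 and 0.471 in G9a cKO, 5.66, 5.83 and 3.45 in GKAQ controls, and 0.569 and 0.593 in cDKO. Every mutant library held 1 to 3 reads, as did GKAO control 3 with 3. It was at least 3.14-fold lower in G9a cKO (adjusted p 0.00234) and at least 2.73-fold lower in cDKO (adjusted p 0.00202). The G9a cKO call ended without GKAO control 1 (0.0550) or 2 (0.0791), and both calls ended with log2(RPM + 1) and without the variance trend, the cDKO call also with precision weights (0.146 at most).

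At 2 other loci the loss passed the test in cDKO and not in G9a cKO. TCONS_00028662 (chr13:6019540-6029004, minus strand, no RefSeq gene) held 10.97, 8.90 and 3.52 RPM in GKAO controls, 6.26, 4.37 and 3.77 in G9a cKO, 10.1, 9.17 and 9.86 in GKAQ controls, and 0.569 and 1.19 in cDKO. The cDKO libraries, with 1 and 2 reads, lay below all others, at least 5.45-fold lower than their controls (adjusted p 5.21e-08), and the G9a cKO libraries overlapped theirs (log2 change -0.58 ± 0.50 SE, adjusted p 0.418). The difference between mutants passed the test (adjusted p 0.0133) but has no exact size, as cDKO stood at the floor, and the call ended without GKAO control 3 (0.108), G9a cKO 1 (0.0687) or cDKO 1 (0.104). TCONS_00091654 (chr7:106919937-106924013, plus strand, no RefSeq gene), 73737 bp from the olfactory receptor gene Olfr703, held 5.24 to 10.97 RPM in the 9 other libraries and 1.71 and 0.593 in cDKO, a level at least 3.84-fold below its controls (adjusted p 2.46e-05). In G9a cKO its log2 change was -0.01 (SE 0.48, adjusted p 0.992). Its difference between mutants passed the test as well (adjusted p 0.0199, again with cDKO at the floor), a call that ended without GKAO control 2 (0.0905), G9a cKO 1 (0.0733) or 2 (0.0508), GKAQ control 3 (0.113) or cDKO 2 (0.19).

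The other loci among the 6 largest losses of each mutant had calls that ended when a single library was left out. TCONS_00021690 (chr12:21543011-21558202, plus strand, wholly covered by RefSeq lncRNA genes and a pseudogene) held 4.80, 7.33 and 8.79 RPM in GKAO controls and 0.835, 2.19 and 2.83 in G9a cKO. Its log2 change was -1.97 (SE 0.51, adjusted p 0.0116), and the call ended without GKAO control 2 (0.0599) or 3 (0.109) or G9a cKO 1 (0.234). TCONS_00026515 (chr13:24773088-24786695, plus strand, no RefSeq gene) lies 9058 bp from Gmnn, which encodes the replication inhibitor geminin. It held 10.3, 7.33 and 9.38 RPM in GKAO controls and 1.67, 2.73 and 4.71 in G9a cKO, a change of -1.68 (SE 0.42, adjusted p 0.00616, and 0.131 without G9a cKO 1). TCONS_00105745 (chr9:41628102-41656798, minus strand) held 11.7, 9.95 and 6.45 RPM in GKAO controls and 5.84, 1.64 and 2.83 in G9a cKO. Its change of -1.60 (SE 0.46, adjusted p 0.0365) was no longer called in 9 of the 19 alternatives, among them those without GKAO control 1 (0.191) or 2 (0.129), G9a cKO 2 (0.128) or 3 (0.105), or GKAQ control 2 (0.0555). In cDKO these 3 loci passed the test in neither direction.

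In cDKO, TCONS_00030283 (chr13:65056461-65058267, minus strand, no RefSeq gene), 4124 bp from Prss47, a serine protease gene, held 5.66, 2.50 and 6.41 RPM in GKAQ controls against 2 reads and no read in cDKO. It was at least 2.53-fold lower (adjusted p 0.00489, 0.0576 without GKAQ control 3 and 0.144 without cDKO 2). TCONS_00074386 (chr4:99584345-99632226, minus strand), which shares its place with an opposite-strand locus, held 6.91, 12.5 and 8.38 RPM in GKAQ controls and 1.14 and 2.96 in cDKO, a log2 change of -2.29 (SE 0.53, adjusted p 0.000815, and 0.144 without cDKO 1). The rule for naming took only calls in which mutants and matching controls did not overlap, so this held for these 5 loci by choice. All 5 calls ended with log2(RPM + 1).

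Among loci well above the read floor, TCONS_00037837 (chr15:90353657-90368381, plus strand), which is 99.6% covered by Gm36480 and whose promoter is printed above, fell in both mutants. It held 134, 133 and 166 RPM in GKAO controls, 69.7, 73.2 and 94.2 in G9a cKO, 120.0, 122 and 133 in GKAQ controls, and 48.4 and 66.4 in cDKO. No mutant library reached its lowest control. G9a cKO gave a log2 change of -0.87 ± 0.14 (SE, adjusted p 7.11e-07), cDKO of -1.14 ± 0.16 (adjusted p 4.37e-10). The G9a cKO call was lost with log2(RPM + 1) and without the variance trend (0.0954 at most), and the cDKO call held in every alternative.

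TCONS_00008182, the Gm6150 locus with the same run in its promoter, held 41.1, 34.04 and 51.6 RPM in GKAO controls, 28.8, 19.7 and 35.3 in G9a cKO, 36.5, 31.2 and 42.9 in GKAQ controls, and 32.5 and 26.1 in cDKO. Mutants and controls overlapped in both crosses, with log2 changes of -0.62 (SE 0.22, adjusted p 0.159) and -0.33 (SE 0.25, adjusted p 0.565).

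TCONS_00066887, the Gm3143 locus (chr3:34708584-34716728, minus strand), lies 30590 bp from Sox2ot. It held 305, 290.1 and 281 RPM in GKAO controls, 395, 369 and 355 in G9a cKO, 124, 122 and 119 in GKAQ controls, and 354 and 224 in cDKO. The GKAQ controls stood apart, below all other libraries, and cDKO spanned the level of the GKAO controls. Against its own controls cDKO was higher (log2 change 1.21 ± 0.11 SE, adjusted p 7.34e-24), but with all 6 controls pooled it was not (adjusted p 0.865). G9a cKO was 0.35 higher (SE 0.10, adjusted p 0.0292), a call that ended without any of GKAO control 2 (0.0968) or 3 (0.145) and G9a cKO 1 (0.221), 2 (0.118) or 3 (0.0533), and in 6 other settings (0.493 at most).

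Other loci fell in both mutants with moderate levels. TCONS_00096285 (chr8:13812980-13823974, plus strand, no RefSeq gene), 10134 bp from AF366264, held 29.5, 39.8 and 41.6 RPM in GKAO controls, 17.5, 14.8 and 19.3 in G9a cKO, 33.9, 35.0 and 37.0 in GKAQ controls, and 18.8 and 14.2 in cDKO. Mutants and controls did not overlap, with log2 changes of -1.10 (SE 0.25, adjusted p 0.00170, lost with log2(RPM + 1)) and -1.11 (SE 0.28, adjusted p 0.00258, and 0.0998 without cDKO 2). TCONS_00079300 (chr5:127578180-127583565, plus strand, no RefSeq gene), 12098 bp from Slc15a4, a transporter of histidine and small peptides, held 68.1 to 92.6 RPM in GKAO controls, 44.2 to 52.3 in G9a cKO, 87.9 to 111 in GKAQ controls, and 57.5 and 46.8 in cDKO. Its log2 changes were -0.69 (SE 0.17, adjusted p 0.00511, 0.137 without GKAO control 3, 0.0671 without G9a cKO 2, and lost with log2(RPM + 1) and without the variance trend) and -0.89 (SE 0.19, adjusted p 0.000152).

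TCONS_00040466, the locus of Mir6961 within Bin2, fell in cDKO and not in G9a cKO. To the control values above, 341 to 424 RPM, stand 364, 337 and 339.5 RPM in G9a cKO, then 251 and 226 for cDKO. Both cDKO libraries lay below all others, and G9a cKO overlapped its controls. The log2 change was -0.66 (SE 0.10, adjusted p 6.07e-09, and 0.0569 without the variance trend) in cDKO and -0.09 (SE 0.09, adjusted p 0.482) in G9a cKO, with a difference of -0.57 (SE 0.13, adjusted p 0.00416) that was lost with log2(RPM + 1), without the variance trend, and with GKAQ control 1 and empty loci left out (0.232 at most).

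The printed promoters of Gm29999 and Gm33700 belong to loci that rose in cDKO. TCONS_00067578 (chr3:82658328-82664992, minus strand) held 78.8, 73.3 and 60.9 RPM in GKAO controls, 78.5, 80.8 and 86.2 in G9a cKO, 76.0, 72.5 and 67.0 in GKAQ controls, and 137 and 144 in cDKO (log2 change 0.96 ± 0.17 SE, adjusted p 2.46e-06). TCONS_00104060 (chr9:98887988-98889609, plus strand) held 13.5 to 24.6 RPM in GKAO controls, 14.1 to 18.8 in G9a cKO, 10.7 to 17.5 in GKAQ controls, and 39.9 and 34.4 in cDKO (1.38 ± 0.31 SE, adjusted p 0.000600). In both, the cDKO libraries lay above the other 9 and G9a cKO overlapped its controls. These loci were picked for their promoters, outside the rule for naming loci.

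Controls of the 2 crosses were not alike at every locus. Between GKAQ and GKAO controls 37 of the 850 were called, 24 higher in GKAQ and 13 lower, against 3.87% over all loci and 12.9% of annotated expressed loci. That split turned to 3 higher and 5 lower with log2(RPM + 1) and to 2 and 5 without the variance trend. Because these controls chose the loci, this is a description. An example is TCONS_00107374, which lies whole within Fbxw23, an F-box gene, at 98.0, 107 and 103 RPM in GKAO controls and 22.6, 27.9 and 31.1 in GKAQ controls. G9a cKO (98.9, 104 and 88.0) and cDKO (47.3 and 26.7) were compared with their own controls, and neither passed the test (adjusted p 0.757 and 0.296).

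Clusters offered few cases in which neighbouring loci were called together. The clusters with the most loci called in cDKO had 2 each, and each such pair was 1 locus on each strand of the same place. For TCONS_00036166 and CUFF.16489.1 the log2 changes in cDKO were 2.17 (SE 0.43, adjusted p 4.51e-05) and 2.35 (SE 0.48, adjusted p 6.29e-05). The shorter partner held 18.8 and 21.3 RPM in cDKO against 2.50 to 6.41 in its controls, and the longer 21.1 and 24.9 against 3.77 to 8.38. Their reads were close to each other: 33 and 36 in cDKO for the shorter and 37 and 42 for the longer.

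H3K9me2 over the unannotated loci was at the level of the genome in controls. Of the 10 kb windows, 3139 overlapped the loci, with a median of 2 windows per locus and none for 5 loci. The deposited values are scaled to each library's total, so a loss spread over the whole genome cannot be seen in them. Depth was uneven: the controls held 7048784 and 19128881 reads and the mutants 1109191 to 1881848, so the median window over these loci held 28 and 77 reads in the controls and 5 to 8 in the mutants.

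**Figure D4:**
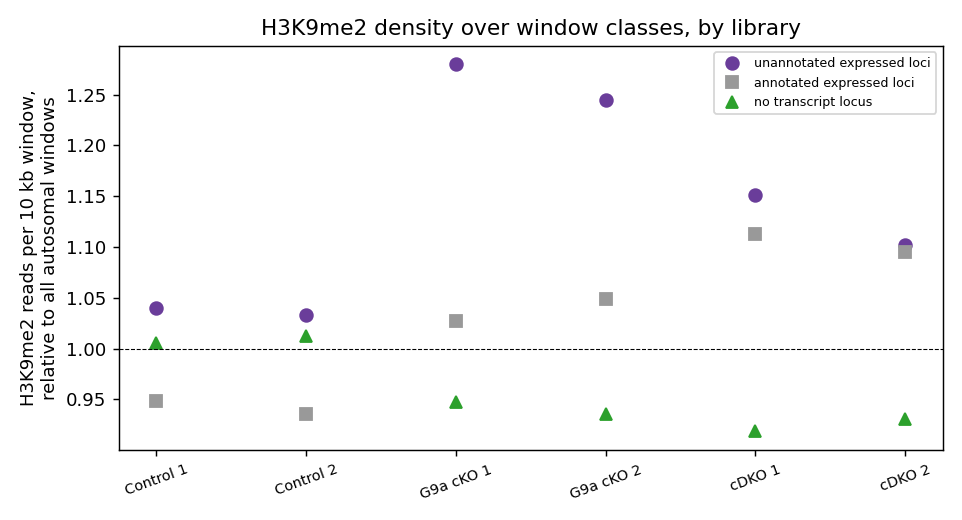
H3K9me2 reads per 10 kb window, relative to the mean of all autosomal windows (dashed line at 1), in each of 6 libraries for windows over unannotated expressed loci, over annotated expressed loci and over no transcript locus. Windows without a read are counted. Windows over the unannotated loci lie at 1.03 and 1.04 in controls, at 1.24 and 1.28 for G9a cKO, and at 1.10 and 1.15 for cDKO.

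Relative to all autosomal windows, windows over the 850 loci held 1.04 and 1.03 times the mean density in the 2 controls, then 1.28 and 1.24 in G9a cKO, and 1.15 and 1.10 for cDKO. Windows over annotated expressed loci stood at 0.949 and 0.936, 1.03 and 1.05, and 1.11 and 1.10, and windows over no transcript locus at 1.01 and 1.01, 0.947 and 0.936, and 0.919 and 0.931. These ratios count windows without a read in any library. A read was present in 3127 of 3139 windows over the 850 loci and in 124264 of 131144 over no locus. Among windows with a read, the control medians were 1.99 and 2.01 log2 RPM over the 850 loci. Over no locus they were 2.04 and 2.08, so the order in controls was reversed. In all 3 genotypes the ratio over the 850 loci was at or above that over annotated loci, and both were higher in the mutants than in the controls. Taken per locus as the mean over its windows, the median level over 845 loci was 2.00 and 2.03 log2 RPM in controls, 2.01 and 2.01 for G9a cKO, then 2.01 and 1.98 for cDKO. Over windows lying mostly inside the loci the order of the group medians changed, from 2.018 in controls and 2.011 in G9a cKO to 2.000 and 2.091.

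Loci that rose in cDKO RNA had slightly higher median H3K9me2 in controls than loci not called, and a lower median in cDKO. The 96 loci higher in cDKO had medians of 2.09 and 2.097 log2 RPM in controls and 1.86 and 1.91 in cDKO. The 715 not called in cDKO had 2.01 and 2.03 in controls and 2.01 and 1.99 in cDKO, and the 39 lower loci had 1.93 and 1.91 in controls and 2.06 and 1.89 in cDKO. The 48 loci higher in G9a cKO had 2.15 and 2.11 in controls and 2.08 and 1.97 in G9a cKO, and the 15 lower had 2.00 and 1.85 in controls and 2.28 and 2.42 in G9a cKO. In cDKO 2 the loci that fell had a median no higher than the loci that rose, and no test was run on these medians. The median autosomal window with a read, a value per window and not per locus, stood at 1.80 and 1.90 in cDKO. The loci that rose in cDKO thus stood near it, and the loci not called stood above it. The 96 were also shorter, with a median of 10375 bp against 15820 bp for the 715, and mutant windows held few reads.

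Window by window, 127 of the 3127 windows with a read were called in G9a cKO against controls, 124 higher and 3 lower (4.06%), where 1.85% of all 255057 windows were called. The 124 higher windows held a median of 28 and 77.5 reads in the controls and 23.5 and 14 in G9a cKO, and they lay in 94 loci, of which 4 were higher and 2 lower in G9a cKO RNA, where 5.65% and 1.76% of the 850 were. These calls rested on single libraries: none remained without G9a cKO 2, without cDKO 1, without cDKO 2, or without the variance trend, 44 and 55 were called without Control 1 and Control 2, and 199 without G9a cKO 1. The 3 windows with the largest fitted rise, all in TCONS_00078467, held 0 to 2 reads in every library, so no fold is given. In chr5:104680001-104690000 only the controls held reads, 1 each. Its fitted rise comes from the 0.9 read given to empty windows, which is worth more RPM in the shallower mutant libraries. These are the only 3 of the 124 at 3 or fewer reads in both controls and both G9a cKO libraries.

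In cDKO no window was called over the loci (0% of all windows), while 346 of the 3127 had an unadjusted limma p under 0.05, as had 22952 of all 255057. The smallest adjusted p over the loci was 0.244, and 4 windows were called without Control 1. One of the 3 lower windows in G9a cKO lay in TCONS_00066980, the locus that rose in both mutants. That window (chr3:39830001-39840000) held 44 and 96 control reads, 1 and 1 reads in G9a cKO, then 4 and 5 in cDKO, or 6.24 and 5.02, 0.538 and 0.902, and 2.32 and 2.66 RPM (adjusted p 0.0457 in G9a cKO). Over all 9 windows of the locus the mean level was 2.07 and 2.05 log2 RPM in controls. It was 1.26 and 1.82 for G9a cKO, then 1.86 and 0.86 for cDKO. The median autosomal window with a read was also lower in each mutant library. Its level was 1.99 and 2.01 for controls, 1.69 and 1.85 for G9a cKO, then 1.80 and 1.90 for cDKO. At this locus G9a cKO 2 and cDKO 1 thus stood near that median, while G9a cKO 1 and cDKO 2 lay well below it. A change of the mean over the locus was not tested. The other 2 windows lay in TCONS_00099095 (36 and 83 control reads, then 1 and 1 in G9a cKO) and TCONS_00033813 (43 and 97, then 2 and 1). At these depths a change in a single window is hardly detectable.

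The loci with the most H3K9me2 in controls were TCONS_00024231, TCONS_00050819 and TCONS_00080601, at 2.59, 2.56 and 2.54 log2 RPM. TCONS_00080601 was lower in G9a cKO RNA, at 44.7, 47.0 and 43.8 RPM against 72.7, 64.4 and 76.8 in its controls (log2 change -0.66 ± 0.17 SE, adjusted p 0.00898, 0.0753 without GKAO control 3, and lost with log2(RPM + 1) and without the variance trend). The groups did not overlap, and in GKAQ controls and cDKO the locus held 94.9, 85.4 and 77.4 against 70.0 and 89.5 RPM. It lies whole inside the unannotated opposite-strand locus TCONS_00076892, which was also lower in G9a cKO (-0.67, adjusted p 0.00214). The loci with the least mark were TCONS_00031467, at -0.01, TCONS_00100135, at 0.86, and TCONS_00052349, at 0.89, and none of these 3 was called in either mutant in RNA. TCONS_00031467 lies whole inside the opposite-strand locus of AC238811.4, which was called higher in cDKO (log2 change 1.09, adjusted p 0.00399). That locus held 122 and 58 reads in cDKO and 41 to 51 in GKAQ controls.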

How the data were processed

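RNA was measured in 11 libraries and H3K9me2 in 6; bisulphite, input and IgG samples were not used here. The deposited values are log2 values per transcript locus or 10 kb window, without a stated unit. Read from the values, they are log2 RPM with 0.9 read where there was none: 100% of values came out as whole reads within 0.01, and the library totals were recovered from these steps (RNA 1458868 to 2399680 reads). Per the submitters' processing notes, Trim Galore, Bowtie2, HISAT2 2.1.0 and Bismark 0.19.0 were used with GRCm38; which tool made which table is not given in the sources used here. Of the RNA table, 1 blank row was left out, and 4 H3K9me2 columns matched no sample and were not used.

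Groups came from genotype and title prefix. Limma 3.58.1 (R 4.3.3) was fitted to all loci with 4 groups, variance trend and robust moderation, with Benjamini-Hochberg adjusted p under 0.05; H3K9me2 windows with a read were tested likewise with 3 groups. The count model was not used, since the deposited unit is log2; precision weights on the recovered reads were an alternative. The script was tested on simulated data. Tables and figures used Python 3.11.15, pandas 2.3.3, numpy 2.4.6 and matplotlib 3.10.9.

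Loci named: the 5 highest in controls, the 6 largest and 6 smallest changes per comparison among calls without overlap, the 5 strongest shared per direction, the 3 longest, the clusters with most loci and most cDKO calls (several tied, given by counts and an example), the 3 highest and 3 lowest in H3K9me2, and those beside the threshold; others are said to be outside this rule. Members and lists were chosen with earlier results of these data known. Planned measures of repeat content and CpG over all loci were not run, since no genome sequence was used. Folds against groups at 3 or fewer reads are bounds at 3 reads.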

Additional observations from a re-analysis of the deposited data

Results flagged for a closer look

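At 16 loci the change in cDKO differed from that in G9a cKO by limma's test of the difference itself, with a Benjamini-Hochberg adjusted p under 0.05 over all 38540 loci. Values are cDKO minus G9a cKO in log2 units. The difference was 3.44 for TCONS_00100950 (adjusted p 0.00443, and 0.0730 without cDKO 1), 3.01 for TCONS_00031171 (0.00277, and 0.0874 without cDKO 2) and 2.82 for TCONS_00004505 (0.00393, and 0.0717 without cDKO 1). For TCONS_00023055 it was 3.43 (3.14e-06) and for TCONS_00084319 1.90 (0.00140), and neither call was lost with any single library left out. TCONS_00074033 differed by 1.83 (0.00967, 0.0556 without GKAQ control 3 and 0.0683 without cDKO 2).

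TCONS_00066887 differed by 0.86 (adjusted p 1.40e-05, and 0.0897 without cDKO 1) and TCONS_00028471, over the lncRNA Gm34586, by 1.17 (0.000324, and 0.0755 without cDKO 1). Both stood lower in GKAQ than in GKAO controls: TCONS_00028471 held 92.5, 91.1 and 94.3 RPM in GKAO controls, 92.3, 88.0 and 115 in G9a cKO, 48.4, 39.2 and 46.3 in GKAQ controls, and 129 and 86.5 in cDKO. TCONS_00066473, over Gm10745, differed by 1.71 (adjusted p 0.0330), with 10.3, 16.2 and 22.3 RPM in GKAO controls, 20.9, 18.6 and 18.4 in G9a cKO, 8.17, 7.08 and 5.92 in GKAQ controls, and 34.7 and 23.1 in cDKO. Its call was lost without GKAO control 2 (0.0673) or 3 (0.185), G9a cKO 1 (0.0571), 2 (0.0795) or 3 (0.0742), GKAQ control 2 (0.0563) or 3 (0.0972), or cDKO 1 (0.250). TCONS_00010910 differed by 1.13 (adjusted p 0.0419), with 22.3 to 44.5 RPM in GKAO controls, 36.7 to 37.2 in G9a cKO, 25.8 to 35.5 in GKAQ controls, and 74.0 and 71.1 in cDKO. That call was lost without GKAO control 1 (0.0725) or 2 (0.113), G9a cKO 1 (0.0795), 2 (0.0795) or 3 (0.0744), GKAQ control 2 (0.126), or cDKO 1 (0.123) or 2 (0.0810). TCONS_00028471, TCONS_00066473 and TCONS_00010910 were named after their values were seen.

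The effect in cDKO was the lower one at 6 loci. For the first 3 of these cDKO held 3 or fewer reads in both libraries, so the fitted differences depend on how such counts are scaled and are not exact sizes. The fitted difference was -2.98 for TCONS_00028662 (adjusted p 0.0133, lost without GKAO control 3 at 0.108, G9a cKO 1 at 0.0687 or cDKO 1 at 0.104) and -2.75 for TCONS_00091654 (0.0199, lost without GKAO control 2 at 0.0905, G9a cKO 1 at 0.0733, G9a cKO 2 at 0.0508, GKAQ control 3 at 0.113 or cDKO 2 at 0.19). For TCONS_00022000 it was -2.34 (0.0278, lost without any of 7 libraries: GKAO controls 1 and 2, G9a cKO 1 and 3, GKAQ controls 2 and 3, and cDKO 2, at 0.0514 to 0.122). TCONS_00040466 differed by -0.57 (0.00416), a call that no single library ended. TCONS_00088836 differed by -1.46 (adjusted p 0.00829), with 29.5, 30.4 and 33.99 RPM in GKAO controls, 31.7, 23.5 and 22.6 in G9a cKO, 51.5, 35.8 and 55.7 in GKAQ controls, and 11.4 and 17.2 in cDKO. It was lost without G9a cKO 1 (0.0657), GKAQ control 3 (0.0735) or cDKO 1 (0.118). TCONS_00066992 differed by -1.95 (adjusted p 0.0495) and was lost without GKAO control 2 (0.0726) or 3 (0.244), G9a cKO 1 (0.149) or 2 (0.0953), GKAQ control 2 (0.161) or 3 (0.131), or cDKO 1 (0.345).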

How the results depend on the processing

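No named locus changed the sign of a called change in the 19 alternatives run on it, but 3 summaries changed order. Differences between mutants went from 10 higher and 6 lower to 9 and 10 with centring on detected loci and 5 and 6 without cDKO 1. Differences between controls went from 24 and 13 to 3 and 5 with log2(RPM + 1) and 2 and 5 without the trend. The median H3K9me2 level in G9a cKO against controls went from 2.011 against 2.018 log2 RPM to 2.091 against 2.000 over windows lying mostly inside the loci. In place of the 850 loci, 1395 unannotated loci pass a control mean of at least 1 log2 RPM and 437 pass 3. The 63 calls in G9a cKO became 5 with log2(RPM + 1), 24 without variance trend and robust moderation and 37 with a control mean of at least 3, and ranged from 42 to 65 with 1 library left out. The 135 calls in cDKO became 81 with log2(RPM + 1) and 77 with a control mean of at least 3, and ranged from 94 to 138 with 1 library left out. The 16 differences between mutants became 3 with log2(RPM + 1) and 5 without the trend, and ranged from 10 (without GKAQ control 3) to 62 (without GKAQ control 1). The 37 differences between controls became 8 and 7 in those settings, and ranged from 24 (without GKAQ control 1, and without GKAQ control 3) to 42. The 127 H3K9me2 windows of G9a cKO became 324 with all windows of the table, 213 centred on windows with a read in all libraries and 0 without the trend, and ranged from 0 to 199 with 1 library left out. The 0 windows of cDKO became 72 with all windows of the table, and ranged from 0 to 4. The causes were not tested, except that a higher threshold tests fewer loci. With the title number as a replicate block the calls numbered 57, 130, 16 and 45 in the order above. The correlation fitted within a number was -0.151. That fit thus took libraries of the same number as less alike, and it does not adjust for any likeness between them. Libraries with the same number correlated by 0 to 0.113 in their deviations from the group means, and those with different numbers by -0.122 to 0.003. Among GKAO libraries every pair with the same number lay above every pair with different numbers. Whether the numbers mark paired samples was not tested. Depth limits the low loci, as a median of 17 reads per control library shows, and H3K9me2 windows with 5 to 8 reads in the mutants.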

Other observations

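The 13306 unannotated autosomal loci below the level of 2 log2 RPM were also in the fit. G9a cKO calls among them numbered 66, with 62 higher and 4 lower, and cDKO calls 347, with 335 higher and 12 lower. A locus with almost no control reads can hardly be called lower, so these splits describe where calls were possible.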
